A study of Drosophila melanogaster with 12 samples.

Results

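The effect of Hey RNAi on purified enteroblasts was measured in 6 of the 12 arrays of a study of the adult Drosophila gut. They were chosen by their titles, 3 arrays of Hey RNAi EBs and 3 of control EBs. The other 6 arrays held whole guts with or without Hey RNAi in enterocytes. Hey RNAi EBs came from females in which dHey-Gal4 drove UAS-dHey RNAi, and control EBs from females in which the same driver drove UAS-GFP. By the study's methods both carried a membrane GFP transgene (UAS-mCD8GFP), through which gut cells were bound to CD8 magnetic beads. Flies of both genotypes were raised at 18 °C and, per the labels, moved at an age of 2 to 4 days to 29 °C for 2 days. The methods add a further stay at 18 °C for the flies used for EBs. The driver was made from the 5′ UTR of Hey. The study describes it as active mainly in EBs and weakly in intestinal stem cells, so the cells marked as EBs were a mixed progenitor fraction, whose purity differed between preparations. The 3 samples of a genotype came from independent crosses.

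Enteroblasts are the progenitors that arise from intestinal stem cells in the fly midgut. Notch signalling directs them toward the large absorptive enterocytes, while other progenitors form the hormone-secreting enteroendocrine cells. Hey belongs to the HES-related family of basic helix-loop-helix transcription factors, which act downstream of Notch and often repress their targets. The comparison asked which transcripts depend on Hey in these progenitors.

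The arrays gave 1 intensity for each of 15473 transcripts, listed by transcript identifier. Only 43 of the identifiers could be paired with a gene symbol, and for 26 of the 43 the reference places a further gene on the same transcript. Hey was not among the 43, so the depth of the knockdown was not analysed here. None of the progenitor, enterocyte, enteroendocrine, visceral muscle, hemocyte or fat body markers could be paired either (0 of each list), so the EB label was not checked against its markers, and a different mix of cells in the preparations cannot be told apart from a change within EBs. The median deposited intensity was 761, 747 and 689 in Hey RNAi EBs 1, 2 and 3, and 590, 491 and 766 in control EBs 1, 2 and 3. Mean intensities of the arrays that share a replicate number differed by 0.371% in pair 1, 0.365% in pair 2 and 27.3% in pair 3. Their medians ranked otherwise, furthest apart in pair 2 and closest in pair 3. Values below are log2 intensities after quantile normalization of the 6 arrays, and changes are Hey RNAi EBs minus control EBs. A transcript was called changed at a Benjamini-Hochberg adjusted p under 0.05 in limma's moderated test, with the replicate number as a block, if it also changed by 2-fold or more. The block removes what arrays of the same number share. The p-values and SEs thus rest on the spread of the change between pairs, in which crosses, preparations and arrays enter together. The moderated test draws this spread toward a value shared by all transcripts, with 2 residual and 2.48 prior degrees of freedom. For a transcript whose pairs are nearly even, the SE comes largely from that shared value.

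Hey RNAi EBs differed from control EBs at 1515 transcripts, 9.79% of the 15473. Of these, 628 (4.06%) rose and 887 (5.73%) fell. Among the few transcripts with a symbol, the laminin chain LanA, the fatty acid transport protein Fatp1, the chromatin protein SuUR and the GATOR2 subunit Wdr24 fell by 1.28 to 1.89 log2 units. A pair of bicistronic transcripts, those of CG31917 and CG32573, rose by 1.17 and 1.87 log2 units. These 6 make up 14.0% of the 43, which is near the background of 9.79%, and 36 of the 43 were brighter than the median transcript in control EBs. LanA, SuUR, Fatp1, Wdr24 and CG31917 followed the rule for named genes, and CG32573, dimmer than that rule allows, was chosen after its values were seen. The limma adjusted p of these 6 calls lay between 0.0328 and 0.0438. When a single array was left out and group means were fitted without pairs, CG31917, Wdr24 and SuUR missed the threshold in 6 of 6 fits (limma adjusted p up to 0.132). LanA and CG32573 missed it in 5 of 6, all but the one without Hey RNAi EB 1, and Fatp1 in 4 of 6, all but those without Hey RNAi EB 1 or 2.

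LanA encodes the alpha chain of laminin, the trimer on which the basement membrane of the gut is assembled. Its log2 intensity was 13.07, 12.87 and 12.71 in Hey RNAi EBs 1, 2 and 3, against 14.18, 14.23 and 14.07 in control EBs 1, 2 and 3. All 3 Hey RNAi arrays lay more than 1 log2 unit below every control array, and the arrays of each genotype lay close together. LanA fell by 1.28 log2 units (SE 0.19, n = 3 each, 2.43-fold, limma adjusted p = 0.0374). It was among the brightest transcripts in control EBs, where 98.6% of transcripts were dimmer, and 90.1% were dimmer in Hey RNAi EBs. Of 9 basement membrane genes looked for, LanA was the only one paired with a transcript, so the group itself was not described.

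Fatp1 encodes a member of the fatty acid transport protein family, which takes up long-chain fatty acids and joins them to coenzyme A. It measured 9.78, 10.50 and 10.75 in Hey RNAi EBs 1, 2 and 3, against 12.47, 12.12 and 12.11 in control EBs 1, 2 and 3. The control arrays were alike, while the Hey RNAi arrays spread over nearly a log2 unit with the lowest value in array 1. The groups did not overlap, and Fatp1 fell by 1.89 log2 units (SE 0.33, n = 3 each, 3.70-fold, limma adjusted p = 0.0438). The pairs differed in size, with log2 changes of -2.69 in pair 1, -1.62 in pair 2 and -1.36 in pair 3.

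SuUR encodes a chromatin protein that holds back replication of heterochromatin in polyploid cells. Its log2 intensity was 11.75, 12.14 and 11.36 in Hey RNAi EBs 1, 2 and 3, against 13.39, 13.09 and 12.75 in control EBs 1, 2 and 3. The highest Hey RNAi array stayed below the lowest control array. SuUR fell by 1.33 log2 units (SE 0.23, n = 3 each, 2.51-fold, limma adjusted p = 0.0433).

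Wdr24 encodes a subunit of GATOR2, the complex through which TORC1, the growth kinase complex, is kept active when amino acids are present. It measured 10.55, 10.45 and 10.06 in Hey RNAi EBs 1, 2 and 3, against 11.63, 11.95 and 11.30 in control EBs 1, 2 and 3. The groups did not overlap, and Wdr24 fell by 1.28 log2 units (SE 0.20, n = 3 each, 2.43-fold, limma adjusted p = 0.0397). Another GATOR2 subunit, mio, was the only other one of 13 TORC1 and GATOR genes looked for that was paired with a transcript. Its pairs did not share a direction, with log2 changes of 0.27, -1.48 and -0.65 in pairs 1, 2 and 3, and it missed the threshold (-0.62, SE 0.38, limma adjusted p = 0.32).

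The transcript of CG31917 also carries Tfb5, a small subunit of the transcription and repair factor TFIIH, so the array does not part these genes. It measured 13.61, 13.36 and 13.45 in Hey RNAi EBs 1, 2 and 3, against 12.28, 12.24 and 12.41 in control EBs 1, 2 and 3. The arrays of each genotype were nearly level, and the transcript rose by 1.17 log2 units (SE 0.19, n = 3 each, 2.24-fold, limma adjusted p = 0.0414). When arrays were centred on their medians in place of quantile normalization the change was 0.68 log2 units, and with the deposited values as given 0.96, and it missed the threshold in both (limma adjusted p = 0.146 and 0.147). The transcript of CG32573, shared with CG42512, measured 9.64, 8.89 and 8.93 in Hey RNAi EBs 1, 2 and 3, against 7.61, 6.73 and 7.52 in control EBs 1, 2 and 3. It lay in the dimmer part of the arrays, where 31.0% of transcripts were dimmer in control EBs. It rose by 1.87 log2 units in the fit (SE 0.24, n = 3 each, 3.66-fold, limma adjusted p = 0.0328).

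**Figure D1:**
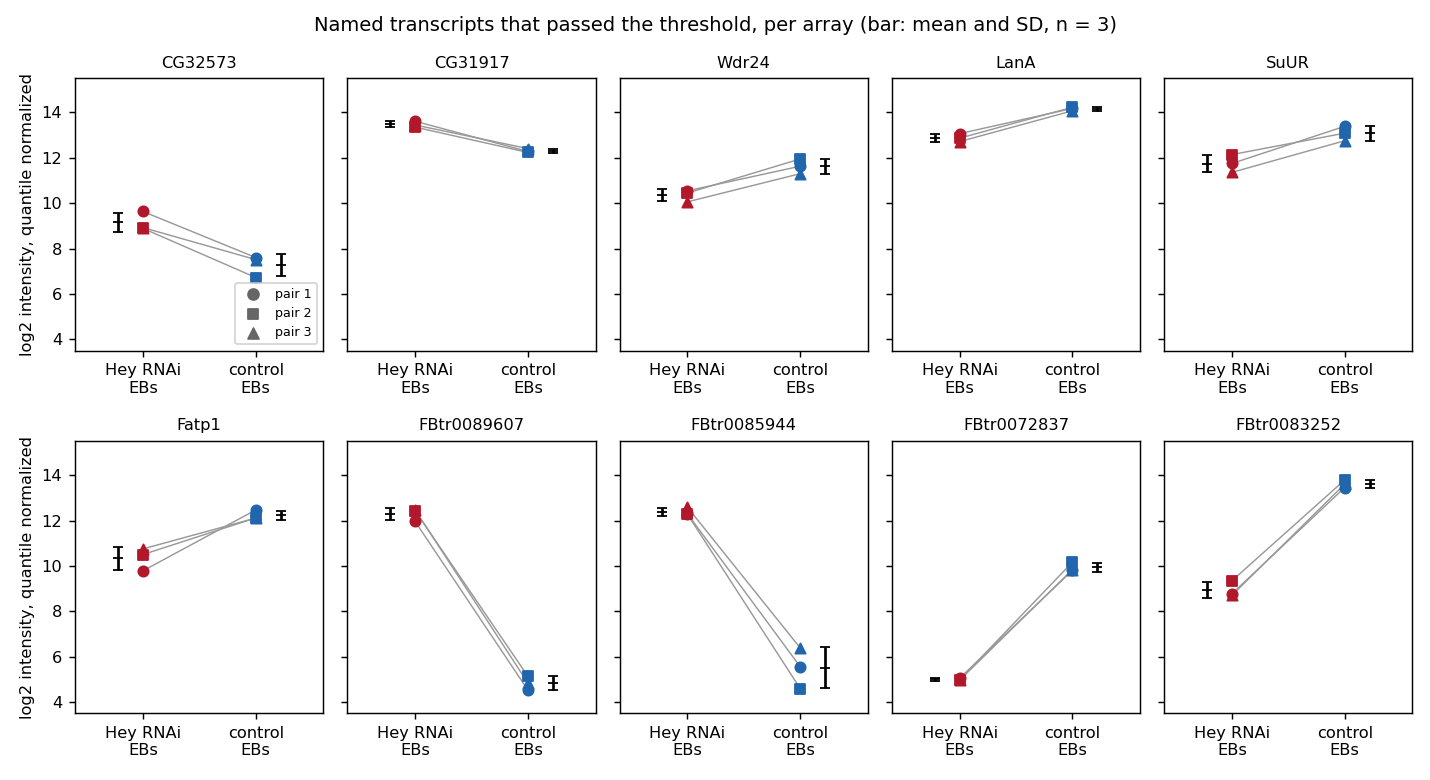
Log2 intensity (vertical axis, quantile normalized over 6 arrays) of the 6 symbol-paired and 4 unnamed transcripts that passed the threshold, with Hey RNAi EBs (red) left of control EBs (blue). Symbols mark pairs 1 to 3, grey lines join the arrays of a pair, and black bars are the mean and SD of 3 arrays. In every panel the groups do not overlap, and FBtr0089607 averages 12.29 in Hey RNAi EBs and 4.83 in control EBs.

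The other 37 transcripts with a symbol did not pass, at changes from -0.85 to 1.31 log2 units. Of these, 7 measured at least 0.5 log2 units higher and 9 at least 0.5 lower in Hey RNAi EBs, and 21 lay within 0.5. All of those named next were chosen after their values were seen. The change of kis, a chromodomain helicase that remodels chromatin, was -0.85 (SE 0.23, limma adjusted p = 0.0832), with log2 changes of -0.85, -0.51 and -1.18 in pairs 1, 2 and 3. Its groups nevertheless overlapped, at 11.41, 12.63 and 11.98 in Hey RNAi EBs and 12.26, 13.13 and 13.17 in control EBs, with array 1 the lowest in both genotypes. The groups of Rad1, part of the clamp that marks DNA damage, on a transcript shared with Sws1, overlapped as well. Rad1 measured 8.81, 9.68 and 9.35 in Hey RNAi EBs and 9.67, 10.39 and 10.09 in control EBs, and its pairs changed by -0.85, -0.71 and -0.74 (limma adjusted p = 0.0716). The enzyme that activates ubiquitin, Uba1, was as even, at -0.70, -0.58 and -0.69 in pairs 1, 2 and 3 (limma adjusted p = 0.0929). For Rad1 and Uba1 the change was thus nearly the same in every pair while the levels shifted from pair to pair.

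PIG-M, a mannosyltransferase of GPI anchor synthesis on a transcript with 3 further genes, was measured at -0.76 (SE 0.20, limma adjusted p = 0.082). CG5116, on a transcript with CG42488, was at -0.70, almost all of it from pairs 2 and 3 (-0.07, -1.40 and -0.64 in pairs 1, 2 and 3). CG16974, CG6191 and the complex I subunit ND-MNLL measured -0.59, -0.58 and -0.53, each in the same direction in all 3 pairs. CG6191 shares its transcript with CG45088, and ND-MNLL with CG45089. On the other side, CG10570, on a transcript with CG42502, had the largest estimate of those that missed, 1.31 (SE 0.52, limma adjusted p = 0.163). That value rested on pair 3, with log2 changes of 0.43, 0.76 and 2.75 in pairs 1, 2 and 3.

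The protein kinase Dyrk3 measured 0.92 log2 units higher (SE 0.25, limma adjusted p = 0.0866), with 12.14, 12.59 and 12.05 in Hey RNAi EBs and 10.80, 11.63 and 11.59 in control EBs. Its pairs differed in size, at 1.34, 0.97 and 0.46. CG30100, on a transcript with CG42372, came nearest to the threshold among the transcripts that measured higher, at 0.88 (SE 0.22, limma adjusted p = 0.0715). fend measured 0.90, Tcs1 0.85, Ppcdc 0.65 and Gint3 0.63 log2 units higher, all in the same direction in 3 pairs and none past the threshold. Tcs1 makes a modified base of tRNAs and shares its transcript with the RNA polymerase III subunit Polr3K. Ppcdc is an enzyme of coenzyme A synthesis on a transcript with CG42496, and Gint3 shares its transcript with CG42306. In all, 32 of the 43 symbol-paired transcripts had the same sign in the 3 pairs, against 57.1% of all transcripts.

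**Figure D2:**
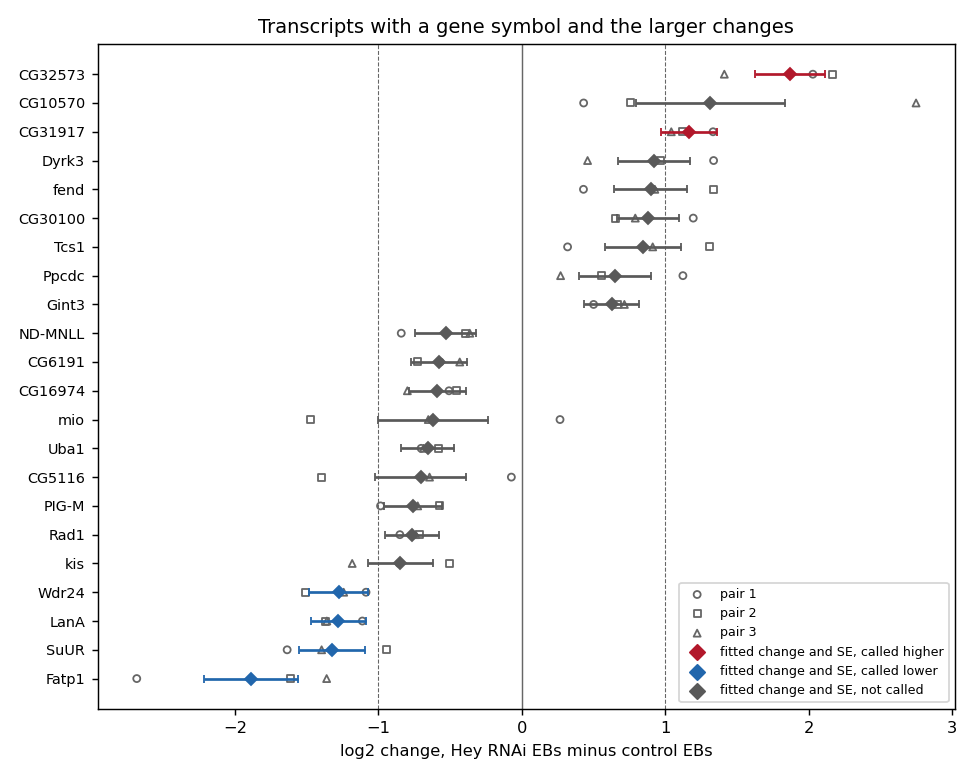
Log2 change, Hey RNAi EBs minus control EBs (horizontal axis), of the symbol-paired transcripts that were called or measured at least 0.5 log2 units from 0. Filled diamonds are the fitted change and its SE (red called higher, blue called lower, grey not called), open symbols are the 3 pairs, and dashed lines mark 2-fold. The pairs of Rad1 and Uba1 lie nearly on one point, those of mio lie on both sides of 0, and CG10570 owes its estimate to pair 3.

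The largest changes were in transcripts without a symbol. FBtr0089607 measured 11.96, 12.44 and 12.47 in Hey RNAi EBs 1, 2 and 3, against 4.52, 5.13 and 4.83 in control EBs 1, 2 and 3. It rose by 7.46 log2 units (SE 0.20, 176-fold, limma adjusted p = 0.011), the largest rise of the comparison. Its place in control EBs, above 1.57% of transcripts, means that its fold rests on a level at the bottom of the arrays, whereas in Hey RNAi EBs it stood above 82.7%. FBtr0085944 measured 12.30, 12.28 and 12.59 in Hey RNAi EBs, against 5.56, 4.59 and 6.38 in control EBs. Its 3 Hey RNAi arrays were level while the dim control arrays ranged over nearly 2 log2 units, and it rose by 6.88 (SE 0.34, 118-fold, limma adjusted p = 0.0174).

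The deepest falls ran the other way. FBtr0072837 measured 5.05, 4.97 and 4.96 in Hey RNAi EBs, against 9.81, 10.17 and 9.84 in control EBs, and fell by 4.94 log2 units (SE 0.20, 30.8-fold, limma adjusted p = 0.0156). The size of this fall also rests on the bottom of the arrays, since in Hey RNAi EBs it stood above 2.00% of transcripts. FBtr0083252 measured 8.77, 9.34 and 8.70 in Hey RNAi EBs, against 13.45, 13.79 and 13.61 in control EBs. It fell by 4.68 log2 units (SE 0.21, 25.6-fold, limma adjusted p = 0.0156) and, unlike the others, had a level in the middle or upper part of the arrays in both genotypes, with 47.8% of transcripts dimmer in Hey RNAi EBs and 96.4% in control EBs. These 4 were called in each of the 16 alternative analyses that kept all 3 pairs or left out a single array, and missed the threshold in the 3 that left out a whole pair (limma adjusted p = 0.0602 to 0.11).

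Across the 628 transcripts that rose, the median change was 1.58 log2 units (quartiles 1.28 and 2.25), and across the 887 that fell it was -1.66 (quartiles -2.12 and -1.33). Falls were thus more frequent in this fit, whereas the extremes were mostly rises. At least 4-fold changes were called for 202 transcripts that rose and 266 that fell, at least 8-fold for 70 and 41, and at least 16-fold for 26 and 7. A further 896 transcripts measured at least 2-fold higher and 850 at least 2-fold lower without passing the test. The adjusted p of the called transcripts ran up to 0.0498, and the smallest called change was 1.00 log2 units.

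The size of the list depended on having 3 pairs. With any 1 of the pairs left out, limma called 0 transcripts, although 4749, 3495 or 3302 still had an unadjusted p under 0.05 without pair 1, 2 or 3, against 5165 with all pairs. Each of these fits had 1 residual degree of freedom, against 2 with all pairs. When single arrays were left out and group means fitted without pairs, 1029 transcripts were called without Hey RNAi EB 1, 728 without Hey RNAi EB 2 and 176 without Hey RNAi EB 3. Without control EB 1, 2 or 3 the count was 303, 200 or 171. The split of directions depended on the scaling. Rises made up 41.5% of calls after quantile normalization and 22.5% (387 higher and 1333 lower) after median centring. That scaling moved the median change of all transcripts to -0.27 log2 units, against 0.04 after quantile normalization.

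Changes were next set against the level in control EBs, by sorting the transcripts into 5 bins of equal size from the dimmest (bin 1) to the brightest (bin 5). Brightness also depends on each transcript's probes, so the bins order signals on the array and not amounts of RNA. The background level of the arrays is not given in the sources used here. The numbers that rose were 111, 100, 215, 167 and 35 in bins 1 to 5. The numbers that fell were 8, 101, 279, 236 and 263. The control arrays enter both the bins and the change, so the bins were also set in other ways. With bins set by the mean of all 6 arrays, 42 transcripts rose and 55 fell in bin 1, and 103 rose and 130 fell in bin 5. With bins set by the level in control guts, 65 rose and 82 fell in bin 1, and 64 rose and 207 fell in bin 5. The level was also taken from control EB 1, 2 or 3 and the change from the other pairs, without calls. In bin 1, 17.5%, 12.5% or 14.9% then measured at least 2-fold higher and 6.95%, 2.59% or 9.99% lower. In bin 5 it was 6.46%, 1.97% or 3.00% higher and 11.3%, 13.3% or 10.6% lower. The excess of falls in bin 5 thus remained with levels from arrays outside the change, and that of rises in bin 1 only in part. By the level in control EBs, bins 3 and 4 held the largest shares of called transcripts, 15.97% and 13.02%, against 3.85% in bin 1, 6.49% in bin 2 and 9.63% in bin 5.

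**Figure D3:**
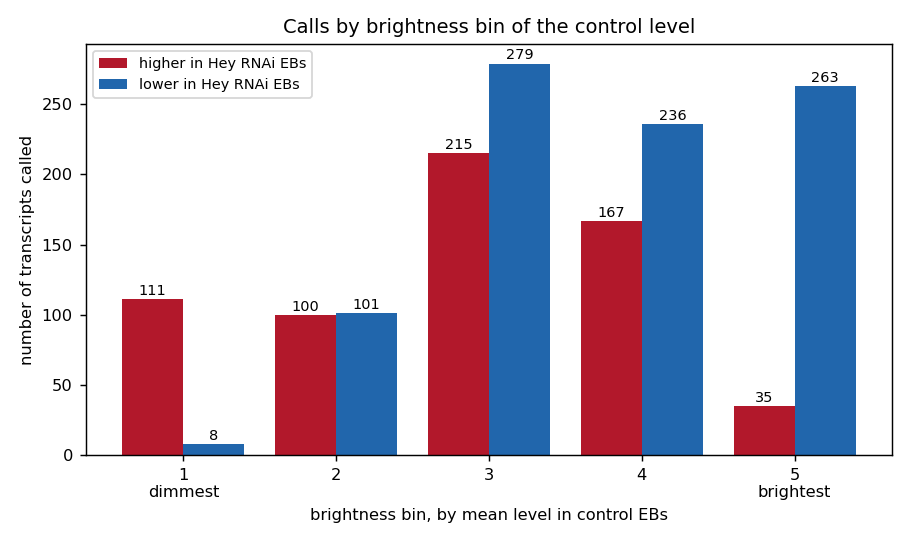
Number of transcripts called (vertical axis) in 5 equal bins of the mean level in control EBs, from dimmest to brightest. Red bars are transcripts higher and blue bars transcripts lower in Hey RNAi EBs. Bin 5 holds 35 rises and 263 falls and bin 1 holds 111 rises and 8 falls, but 103 and 130, and 42 and 55, when bins are set by the mean of all 6 arrays. With bins set by control guts, bin 5 holds 64 rises and 207 falls and bin 1 holds 65 and 82.

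Most of the called changes carried a transcript across bins. Of the 628 that rose, 516 lay in a brighter bin in Hey RNAi EBs than in control EBs, and 404 ended in bins 4 or 5. Of the 887 that fell, 731 lay in a dimmer bin in Hey RNAi EBs, and 499 had started in bins 4 or 5 of control EBs. A passage between the extremes was rare. Of 2037 transcripts that lay in bin 1 in every control EB array, 3 reached bins 4 or 5 in every Hey RNAi EB array. Of these 2037, 76 rose, against 628 (4.06%) of all 15473 transcripts. Of 5472 that lay in bins 4 or 5 in every control EB array, 0 reached bin 1 in every Hey RNAi EB array. Of these 5472, 440 fell, against 887 (5.73%) of all 15473.

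Called rises had median changes of 1.95, 1.92, 1.73, 1.35 and 1.23 log2 units in bins 1 to 5. With bins from the mean of all 6 arrays these medians were 1.34, 1.92, 1.90, 1.44 and 1.33, so the first bin no longer had the largest. Called falls had medians of -1.40, -1.71, -1.88, -1.61 and -1.56 in bins 1 to 5 of the control level. Over all transcripts the median change was 0.28 in bin 1, near 0 in bins 2 to 4 (0.01, -0.03 and 0.04) and -0.13 in bin 5. Because the control level enters the change, a dim control value raises it, so the same was computed with the level from 1 control array and the change from the other pairs. The median was then 0.20, 0.29 or 0.16 in bin 1 and -0.094, -0.14 or -0.087 in bin 5 for control EB 1, 2 or 3. With arrays centred on their medians the median change was -0.061 in bin 1 and -0.60 in bin 5, against -0.27 for all transcripts. The sign in bin 1 thus depended on the scaling, but bin 1 lay above and bin 5 below the whole in both. The shift of the brightest was 0.032 when bins were set by the mean of all 6 arrays.

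**Figure D4:**
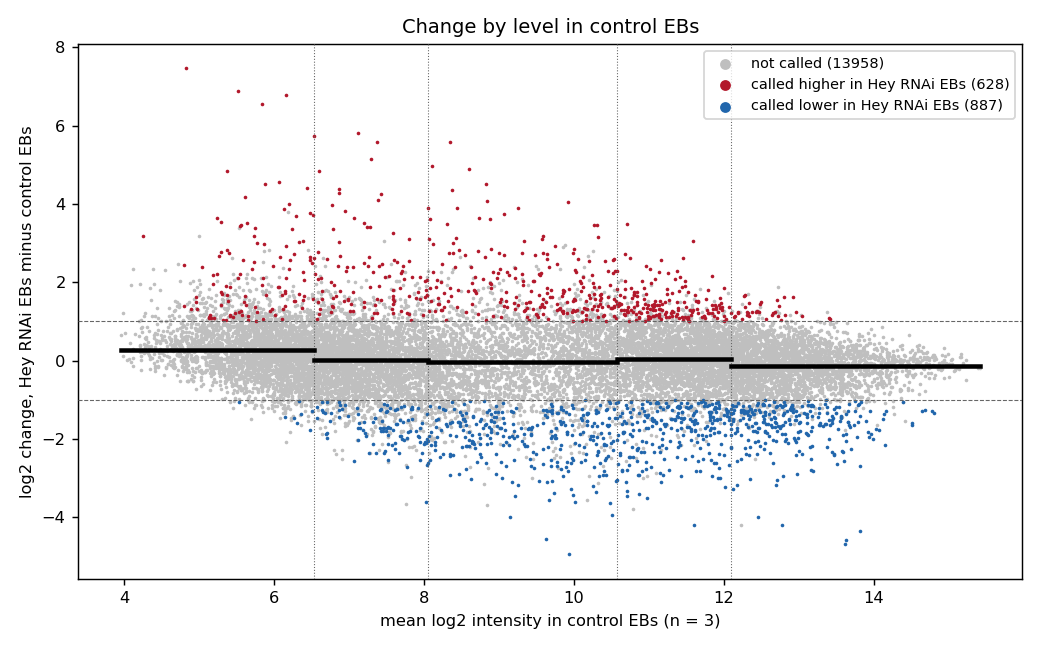
Log2 change, Hey RNAi EBs minus control EBs (vertical axis), of all 15473 transcripts against their mean log2 intensity in control EBs (horizontal axis, n = 3). Red points are the 628 called higher and blue points the 887 called lower, black lines are the medians of the 5 bins, dotted lines part the bins and dashed lines mark 2-fold. The largest rises start from dim control levels, and falls are spread over bins 2 to 5.

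Dim transcripts also varied most between pairs. The median SD of the 3 pairs' changes was 0.56, 0.64 and 0.59 log2 units in bins 1, 2 and 3, and 0.32 and 0.23 in bins 4 and 5. The same sign in all 3 pairs was seen for 47.9%, 44.2%, 57.6%, 66.4% and 69.6% of transcripts in bins 1 to 5. Measured over single transcripts, the SD among the 3 arrays of a genotype had a median of 0.40 in Hey RNAi EBs and 0.34 in control EBs, against 0.16 in Hey RNAi guts and 0.19 in control guts.

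The 3 pairs moved broadly together. At least 2-fold differences were measured for 2144 transcripts higher and 2190 lower in pair 1, 2138 and 2396 in pair 2, and 1952 and 2058 in pair 3. Of all transcripts, 8841 (57.1%) had the same sign in the 3 pairs, 557 were at least 2-fold higher in each pair and 775 at least 2-fold lower in each. Another 471 were at least 2-fold higher in 1 pair and at least 2-fold lower in another. All 1515 called transcripts had the same sign in the 3 pairs, as the test nearly requires, and for 1449 of them (95.6%) the arrays of the genotypes did not overlap, against 34.7% of all transcripts. Of those that rose, 506 (80.6%) passed 2-fold in every pair, and of those that fell, 709 (79.9%). These shares, like that without overlap, come from the arrays that gave the calls and follow in large part from the selection. The test and the fold per pair did not fully coincide, since 51 transcripts at least 2-fold higher and 66 at least 2-fold lower in all 3 pairs were not called.

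A pair can be set against the others without any array in common. Most falls carried over whichever pair was held out. Of the transcripts at least 2-fold lower in the other pairs, 95.0% were also lower in pair 1 (1138 of 1198), 95.8% in pair 2 (1003 of 1047) and 93.5% in pair 3 (982 of 1050). Of all transcripts, 45.3%, 50.7% and 51.0% were lower in pairs 1, 2 and 3. Among rises, pair 1 had the lowest share. Of the transcripts at least 2-fold higher in the other pairs, 78.8% were also higher in pair 1 (860 of 1092), against 97.7% in pair 2 (791 of 810) and 94.7% in pair 3 (744 of 786). Of all transcripts, 54.6%, 49.3% and 49.0% were higher in pairs 1, 2 and 3. At the 2-fold limit the shares were 51.0%, 68.8% and 70.9% for rises and 64.7%, 74.0% and 73.8% for falls in pairs 1, 2 and 3. All 3 pairs were normalized together, so these shares are not free of the common scaling. Across transcripts, which are not independent replicates, the changes correlated at r = 0.44 between pairs 1 and 2, 0.48 between pairs 1 and 3 and 0.65 between pairs 2 and 3.

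**Figure D5:**
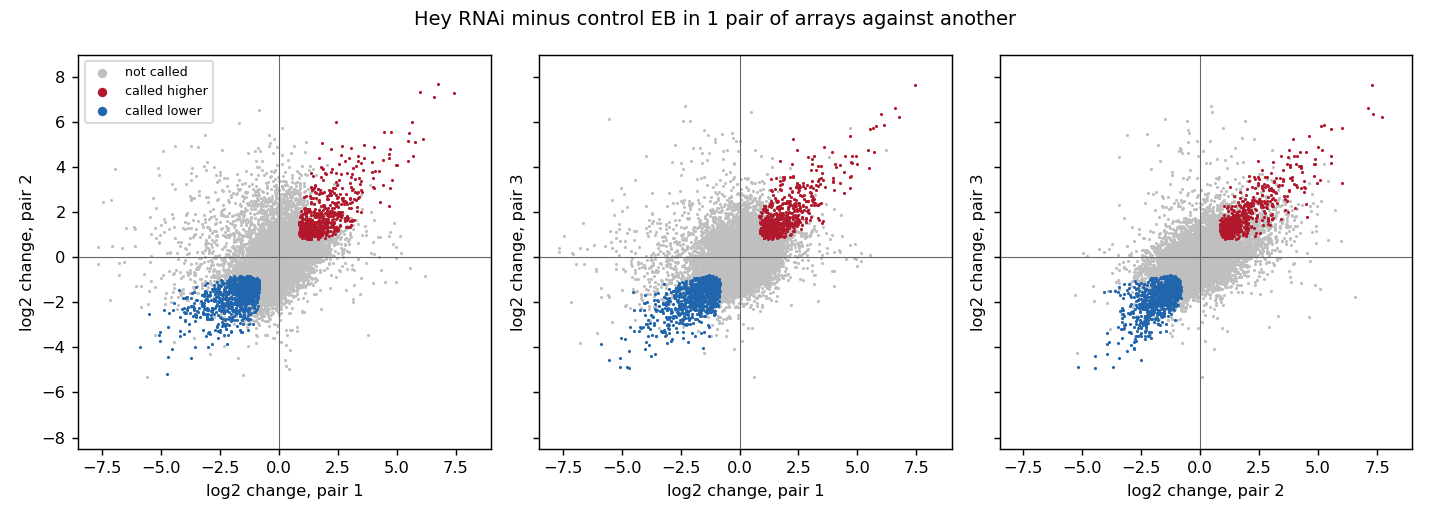
Log2 change, Hey RNAi minus control EB, of each transcript in 1 pair (horizontal axis) against another pair (vertical axis), for pairs 1 and 2, 1 and 3, and 2 and 3. Red and blue points are the transcripts called higher and lower, and grey points those not called. Grey points with positive changes in pairs 2 and 3 extend to negative changes in pair 1, where r is 0.44 and 0.48, while pairs 2 and 3 follow each other at 0.65.

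Many of the rises on which pair 1 departed were of transcripts bright in whole guts. Of the 1092 that were at least 2-fold higher in pairs 2 and 3, 232 were not higher in pair 1, and 120 of these 232 (51.7%) belonged to the brightest of 5 equal bins in control guts, against 14.5% of the 860 that were higher in pair 1. Among falls the contrast ran the other way. Of the 60 not lower in pair 1, 0 belonged to that bin, against 19.8% of those that were lower. Among rises and falls alike, transcripts bright in guts thus tended toward lower values in pair 1. In this brightest bin of the guts the median change in EBs was -0.20 in pair 1, 0.01 in pair 2 and -0.05 in pair 3, and pairs 1 and 2 correlated at r = 0.12 across its transcripts. Each EB array was also set against the mean of the control guts across all transcripts. The correlation was 0.82, 0.86 and 0.87 for Hey RNAi EBs 1, 2 and 3, and 0.89, 0.83 and 0.88 for control EBs 1, 2 and 3. Pair 1 thus held both the Hey RNAi array least like guts and the control array most like them, and in pair 2 the order of the genotypes was reversed. The 773 transcripts brightest in control guts had median log2 intensities of 13.20, 13.39 and 13.44 in Hey RNAi EBs 1, 2 and 3, and 13.60, 13.48 and 13.52 in control EBs 1, 2 and 3. Their lower quartiles were 11.86, 12.11 and 12.36 in Hey RNAi EBs 1, 2 and 3, and 12.77, 10.55 and 12.14 in control EBs 1, 2 and 3. By this quartile control EB 2 stood lowest. How far the purity of the preparations enters the changes in EBs was not tested.

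The gut arrays, which share no sample with the EBs, held Hey RNAi driven in enterocytes, with 3 Hey RNAi guts and 3 control guts. They were quantile normalized among themselves and used here without a test. By the titles, guts and EBs were both compared with GFP controls. A difference between the RNAi and GFP strains would thus enter both comparisons, and it cannot be told apart from an effect of Hey. Transcripts that rose in EBs also tended to measure higher in guts. Of the 628, 144 (22.9%) were at least 2-fold higher in Hey RNAi guts than in control guts, against 4.52% of all transcripts, and for 319 (50.8%) every Hey RNAi gut lay above every control gut, against 22.7% of all. Their median gut change was 0.39 log2 units, against 0.03 for all transcripts.

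Transcripts that fell in EBs stood closer to the background in guts. Of the 887, 55 (6.20%) were at least 2-fold lower in Hey RNAi guts than in control guts, against 4.3% of all transcripts. For 254 (28.6%) every Hey RNAi gut lay below every control gut, against 19.9% of all, and the median gut change was -0.08 log2 units. Of the named ones, Fatp1 had a gut change of -0.70 and Wdr24 of -0.21, with no overlap between the genotypes, and LanA one of -0.32 with overlap. SuUR went against its fall in EBs, with a gut change of 0.51 and every Hey RNAi gut above every control gut. FBtr0089607 measured 4.24 log2 units higher in Hey RNAi guts than in control guts, also without overlap, whereas FBtr0085944 differed by 0.56 with overlap.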

How the data were processed

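RNA of the EB samples was amplified and copied into cDNA, which was labelled with Cy3 and measured on 1-colour NimbleGen arrays. The authors used NimbleScan at its defaults for extraction and ArrayStar for normalization, and the submitters' processing notes name RMA. The deposited values are linear intensities, 8.29 to 55810 in the EB arrays. Whether they precede or follow that normalization is not given in the sources used here. The deposited tables of the authors' own comparisons (group means, folds, p-values and t scores) were not used.

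The 6 EB arrays were log2 transformed, quantile normalized and fitted alone with limma 3.58.1 in R 4.3.3 (replicate number as block, 2 residual and 2.48 prior degrees of freedom). p-values were adjusted over all 15473 transcripts, with no filter. Same-numbered arrays deviated together from their group means (r = 0.18, 0.32 and 0.13 in pairs 1, 2 and 3, against -0.28 to 0.07 for unlike numbers), which is a pattern in the data and not stated in the labels. The scripts were tested on simulated data. Symbols came from RefSeq synonyms. Named were the called transcripts with a symbol and a level above the median of the arrays, and the 2 unnamed ones that rose and the 2 that fell most. Lists with under 80% of members paired were left out, which held for all of them (cell cycle, stress and immune, tRNA synthetase and nuclear lamina lists had 0 members paired). Members and lists were chosen with earlier results of these data known. Alternatives covered the block, normalization, arrays, filter, prior, weights and replicates. Depth is given by no count here, and the number of arrays limits the precision.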

Additional observations from a re-analysis of the deposited data

Results flagged for a closer look

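For 6 symbol-paired transcripts all 3 EB pairs moved one way while every Hey RNAi gut lay on the opposite side of every control gut. That is 14.0% of the 43, against 9.38% (1451) of all 15473 transcripts. The difference between EBs and guts was not tested for any of them. The log2 change was 1.87 in EBs and -0.64 in guts for CG32573, and -1.33 in EBs and 0.51 in guts for SuUR, which were both called in EBs. Of those not called, Uba1 measured -0.66 in EBs and 0.87 in guts, Rad1 -0.77 and 0.60, CG5116 -0.70 and 0.50, and PIG-M -0.76 and 0.21.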

How the results depend on the processing

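Without the replicate block 1315 transcripts were called, 580 higher and 735 lower, of which 1113 were among the 1515, and the 10 named calls all passed. With the block as random the count higher was 982. With median centring 387 rose and 1333 fell. The deposited values with no further normalization gave 563 falls. Fitting all 12 arrays together gave 2625 (1161 and 1464), array weights 2583 (1158 and 1425), and an intensity trend with a robust prior 2299, 1001 of them higher. Leaving out an array or pair gave 0 to 1029 calls, 0 to 457 higher and 0 to 572 lower. The median change in bin 1 was 0.20 and 0.16 with the level from control EB 1 and 3, 0.068 by the level in control guts, 0.089 by the mean of 6 arrays, -0.061 with median centring and 0.21 for the deposited values. In bin 5 it was -0.087 with control EB 3, -0.069 by control guts, 0.032 by the mean of 6 arrays, -0.60 with median centring and -0.33 for the deposited values. Median centring left 351 transcripts at least 2-fold higher and 1188 at least 2-fold lower in all pairs, and put the gut changes of the EB rises and falls at 0.32 and -0.13. The bins under other scalings and the centring of guts were added after seeing the data. Of the named transcripts that changed by at least 0.5 log2 units, none turned its sign in the alternatives run. Of the 6 called with a symbol, all missed without any 1 pair (limma adjusted p = 0.0947 to 0.183), 4 to 6 of the 6 fits without a single array lost each of them, and Wdr24 and SuUR also with the deposited values (0.0669 and 0.05003). Uba1, PIG-M and kis passed with median centring (limma adjusted p = 0.0444, 0.0389 and 0.0393), and CG10570 with array weights (0.0245). Of the 21 smaller changes, 14 turned their sign in at least 1 of 19 alternatives.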
